A study of Drosophila melanogaster with 24 samples.

Results

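In whole female flies under dietary restriction (DR), 149 of 16637 transcripts were brighter by at least 1.3 log2, or 2.46-fold, than on the other diet (AL), both in flies given the drug RU486 and in flies not given it. They are 0.896% of all and are called the restriction-raised transcripts here. Probes of a transcript were averaged on the log2 scale, 8 probes for each of the 149, and the median of 6 arrays stood for a group. The DR minus AL difference of these medians had to reach 1.3 with and without RU486. All 24 arrays therefore took part in the choice, and the diet differences below describe the transcripts and are not tested.

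The flies were Drosophila melanogaster females aged 13 days, in pools of about 35. Every group carried 1 copy of the driver Act5c-GS-Gal4 and 1 copy of the insertion P{GD3482}v8105, in the labelled strain +/+; Act5c-GS-Gal4/+; P{GD3482}v8105 /+. The groups were DR with RU486, DR without RU486, AL with RU486 and AL without RU486, with 6 pools each, and DR flies had eaten DR food for 10 days. The labels do not spell out AL. Nothing in the labels says whether the pools came from separate cultures, so p-values measure the spread between pools.

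Restricting the yeast of the food lengthens fly life and lowers egg laying, and flies so fed are known to turn over more fat. GeneSwitch drivers are switched on by feeding RU486, and this Actin one acts in most tissues. From general knowledge and not from the labels, the insertion makes an RNA hairpin against ACC, the acetyl-CoA carboxylase that supplies malonyl-CoA for fatty acid synthesis. No group had the drug without the insertion, so effects of the drug and of the knockdown cannot be told apart. In whole flies, fewer cells of a type and less RNA per cell cannot be told apart either.

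The array identifies transcripts only by FlyBase transcript number, and none of the restriction-raised transcripts has a gene symbol in the RefSeq gene table used here, so 0 of 149 can be given a name or a function. Of 166 genes on 16 lists of pathways and tissue markers, 4 could be matched to the array, Fatp1, LanA, Wdr24 and mio, and 0 of these are restriction-raised. The lists of ovary, fat body, muscle, neural and male markers had 0 matches, so the labelled tissue could not be checked against its markers. Transcripts are given by identifier.

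The median probe of an array lay between 9.26 and 9.47 log2. Background on each array was the level that 95% of sets of 8 random probes stayed under, between 7.35 and 7.68 log2, and 12945 to 14350 transcripts lay above it. Pool 3 of DR with RU486 and pool 1 of AL with RU486 stood apart from their groups. Their transcript deviations from the group mean had SDs of 0.228 and 0.365 log2, against 0.101 to 0.159 on each of the other arrays. Without both, the rule takes 169 transcripts, 141 of them among the 149. The scale of the arrays also moved with the diet. Medians over all probes were 9.43 to 9.47 log2 on DR, apart from 9.26 in pool 3 with RU486, against 9.26 to 9.36 on AL, and medians of the random probes were 6.98 to 7.09 on DR, against 7.12 to 7.20 on AL. The rule takes 92 transcripts, all among the 149, after centring on array medians, and 228, including the 149, after subtracting the random-probe median.

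The median diet difference of the 149 was 1.49 log2 with RU486, or 2.80-fold, and 1.76 log2 without it, or 3.39-fold. Over all transcripts the medians were −0.03 and −0.07 log2. The highest was 4.81 with RU486 and 5.80 without it. Most transcripts were near the threshold: 83 had a smaller difference under 1.5 log2, 24 reached 2 log2 in both comparisons and 10 reached 3. The threshold of 1.3 was reached by 162 transcripts with RU486, 0.974% of all, and by 452 without it, 2.72%. The 149 are 92.0% of the 162 and 33.0% of the 452. Just inside the threshold were FBtr0075424 and FBtr0072634, with smaller differences of 1.3001 log2 (without RU486) and 1.3015 log2 (with RU486). Just outside were FBtr0072848, with a smaller difference of 1.299 log2, and FBtr0078043, with 1.298.

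Averaged over the 149, the level of an array was 10.39 to 10.87 log2 on DR with RU486, median 10.66, against 8.92 to 9.07 on AL with RU486, median 9.02. Without RU486 it was 10.90 to 11.34 on DR, median 11.11, against 8.98 to 9.20 on AL, median 8.99. Each DR array thus lay above each AL array, and each DR array with RU486 below each DR array without it, while on AL the arrays with and without RU486 overlapped. These arrays chose the transcripts, so the order of the groups is a description only. In pool 3 of DR with RU486, which is low over the whole array, 87.2% of the 149 were below their group mean, against 63.0% of all transcripts. In pool 3 of DR without RU486 80.5% were, against 53.7% of all.

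**Figure D1:**
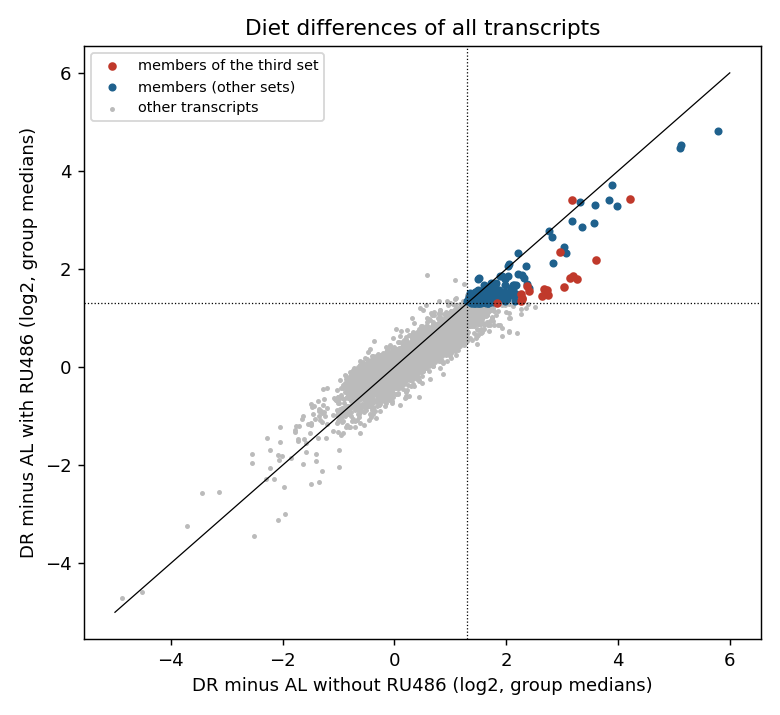
Each point is a transcript, with its DR minus AL difference of group medians without RU486 on the x axis and with RU486 on the y axis, both in log2. Dotted lines mark the threshold of 1.3, the solid line marks equal differences, and most restriction-raised transcripts, 132 of 149, lie below it, those of the third set (red) mostly farthest.

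FBtr0085029 had the largest difference in both comparisons. Its 6 arrays of DR with RU486 ran from 12.31 to 13.29 log2 with a median of 12.77, against 7.65 to 9.13 with a median of 7.96 on AL with RU486. Without RU486 it lay at 13.02 to 14.01 with a median of 13.71 on DR, against 7.66 to 9.26 with a median of 7.91 on AL. The diets were far apart in both comparisons, and on AL the transcript was itself uneven, with 3 of 12 pools well above the rest. These were pool 6 with RU486, at 9.13, and pools 3 and 1 without it, at 9.26 and 8.78. The difference of means was 4.75 ± 0.26 log2 with RU486 and 5.40 ± 0.26 without it (SE, n = 6 pools a group). All 8 of its probes reached the threshold in both comparisons, at 2.93 to 5.55 log2 with RU486 and 3.14 to 6.68 without it.

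FBtr0077058 came second, with 11.41 to 12.46 log2 on DR with RU486, median 12.18, against 7.42 to 8.04 on AL with RU486, median 7.65. Without RU486 the DR arrays had 11.67 to 13.21, median 12.59, against 7.40 to 8.27 on AL, median 7.47. The AL values were close to the floor of the array: 4 of 6 AL arrays with RU486 and 2 of 6 without it were above background. FBtr0077061, which falls outside the naming rule and is given because it is the only other transcript at 4 log2 or more in both, was much like it. It differed by 4.47 log2 with RU486 and 5.12 without it, with 3 and 2 of 6 AL arrays above background.

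**Figure D2:**
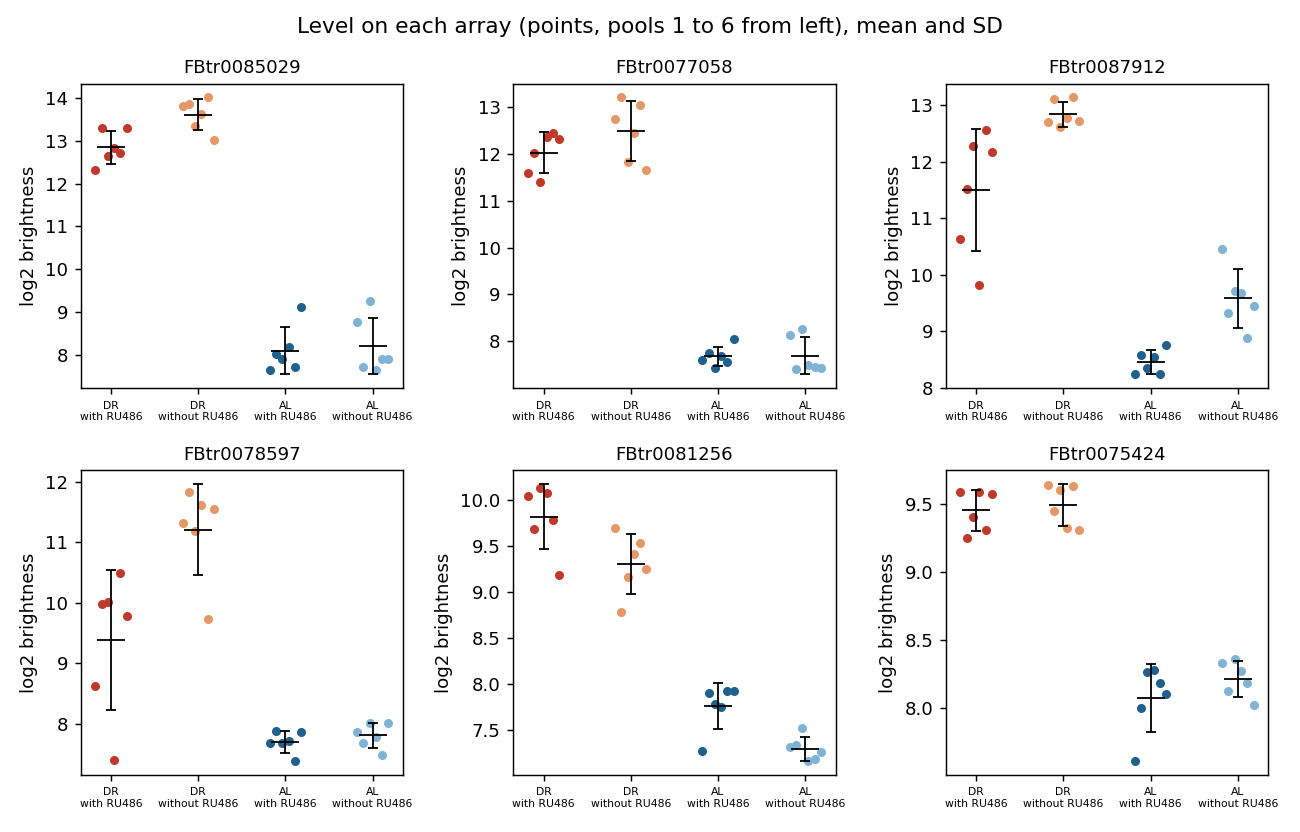
Log2 brightness (y axis) of 6 restriction-raised transcripts on every array, by group (x axis), with pools 1 to 6 from left to right in each group, and the mean and SD of the 6 pools in black. FBtr0085029, FBtr0077058, FBtr0081256 and FBtr0075424 keep DR and AL apart in both comparisons, while FBtr0087912 and FBtr0078597 spread widely on DR with RU486.

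Without RU486 every DR array was above every AL array for 149 of 149, where 24.0% of all transcripts show this, and with RU486 for 139 of 149, against 14.1% of all. The rule used these arrays, so nothing is read from the counts. Of the 10 that overlapped with RU486, 7 belong to the third set described below. On DR, 144 transcripts were above background on all 12 arrays. The other 5, FBtr0073333, FBtr0077128, FBtr0078596, FBtr0078597 and FBtr0078607, named after their values were seen, missed it on 1 array of DR with RU486 each. On AL, 113 were above background on all 12 arrays and 33 on some. The remaining 3 were above it on none, so that both of their differences have only a lower bound. FBtr0290225 was at least 3.57-fold higher on DR with RU486 and at least 6.09-fold higher without it, FBtr0075631 at least 3.05-fold and 3.83-fold, and FBtr0077022 at least 1.85-fold and 2.84-fold. Another 3 were above background on no AL array of 1 comparison. Without RU486, FBtr0081256 was at least 3.32-fold and FBtr0086989 at least 3.57-fold higher on DR. For FBtr0078596 with RU486 the same calculation gave 2.44-fold. It is not a strict bound, since 1 DR array was itself under background and the diets overlapped. Apart from FBtr0081256, these were likewise named after their values were seen.

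Of 1192 probes, 1185 (99.4%) were brighter on DR in both comparisons, and 829 (69.5%) reached the threshold in both. The rule used the means of these probes on these arrays, and the share over all probes was not counted. Nothing is therefore read from the probe counts as agreement. In 144 transcripts all 8 probes pointed this way. In 4 others 7 of 8 did. In FBtr0074665, named after its values were seen, 5 of 8 did, and its probes ran from −0.14 to 3.61 log2 with RU486 and from −0.27 to 4.44 without it. Its mean thus joins probes with very unlike differences.

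The difference was smaller with RU486 than without it for 132 of the 149. Its median share of the difference without RU486 was 0.85, with quartiles of 0.78 and 0.94. Both differences chose the transcripts, and with 452 candidates on one side and 162 on the other this share carries no test. The smallest share was that of FBtr0076306, with 1.47 log2 with RU486 and 2.75 without it, followed by FBtr0078619, with 1.64 and 3.04. FBtr0078619 lay at 10.20 to 11.45 log2 on DR with RU486, against 11.81 to 12.36 on DR without RU486, while on AL it lay at 9.12 to 9.35 with and 8.83 to 9.05 without RU486. In this transcript RU486 thus went with a lower level on DR and a higher one on AL, and the groups did not overlap on either diet. The largest share was that of FBtr0076854, at 1.20, with 1.82 log2 with RU486 and 1.52 without it. In pool 3 of DR with RU486, one of the arrays that stand apart, it was at 9.87 log2, against 10.86 to 11.19 in the other pools of that group. FBtr0071893 was next, at 1.19.

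The average effect of RU486 over both diets, the mean of the 2 groups with the drug minus the mean of the 2 without, was tested. It would be independent of both diet differences if all groups had the same spread, and they did not. Over the 149, the median SD between pools was 0.30 log2 on DR with RU486, 0.23 on DR without RU486, 0.20 on AL with RU486 and 0.15 on AL without RU486. The choice of the transcripts can therefore reach into this test, and its counts over the 149 describe them and are no independent evidence of a direction. In limma over all 16637 transcripts, with Benjamini-Hochberg adjustment at 0.05, 23 of the 149 fell with RU486 (15.4%), where 2.01% of all transcripts did, and 4 rose (2.68%), where 0.715% of all did. The other 122 did not pass. The median effect was −0.19 log2 over the 149 and 0.00 over all transcripts, and 131 of 149 (87.9%) had an estimate below 0, against 49.5% of all. The 303 that reached 1.3 log2 without RU486 only were alike, with a median of −0.17. Among these 303, 45 fell (14.9%), 0 rose, and 94.7% had an estimate below 0. The fall is thus not particular to the 149. The 35 that were lower on DR by 1.3 log2 or more in both comparisons had a median of 0.01, with 5 falling and 4 rising. With AL without RU486 pool 3 left out, 17 of the 149 passed in place of 27, 13 lower and 4 higher. Of all transcripts 1.83% then passed, in place of 2.73%.

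**Figure D3:**
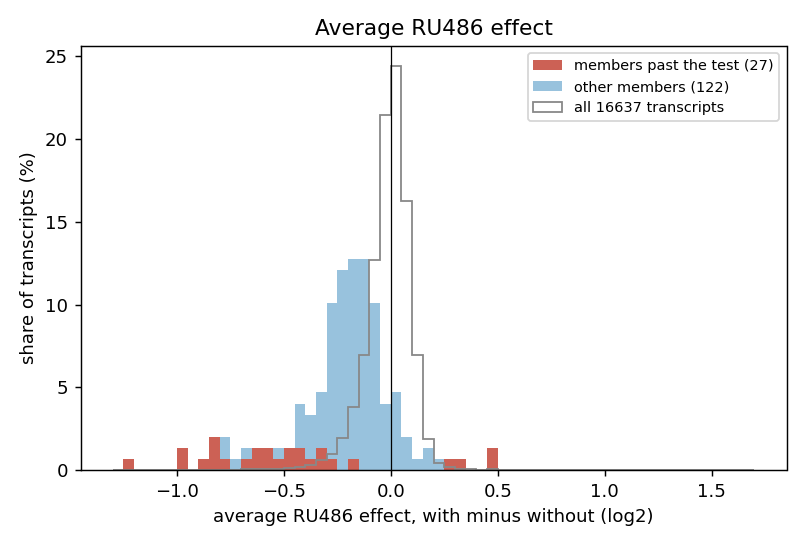
Share of transcripts (y axis, percent) by average RU486 effect (x axis, log2, with minus without), for the 27 restriction-raised transcripts that passed the test and the 122 that did not, stacked as shares of the 149, and as an outline for all 16637. The restriction-raised transcripts centre on −0.19 and all transcripts on 0.00.

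The transcript with the largest fall was FBtr0087912, which fell by 1.24 ± 0.23 log2 (SE, limma adjusted p = 0.00251). It lay at 9.81 to 12.56 log2 on DR with RU486, median 11.85, against 12.62 to 13.14 on DR without RU486, median 12.75. On AL it lay at 8.24 to 8.76 with RU486, median 8.44, against 8.88 to 10.46 without it, median 9.56. Every pool with RU486 was thus below every pool without it on both diets, by 1.35 log2 in the DR means and 1.13 in the AL means. Its diet difference was nonetheless among the larger of the 149. By group medians it was 3.41 log2 with RU486 and 3.19 without it, and by means 3.05 and 3.26, so which was larger depends on the summary.

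FBtr0078597 fell by 0.96 ± 0.26 log2 (limma adjusted p = 0.0411), but with single arrays left out in turn the call was lost in 17 of 24 cases, with adjusted p up to 0.073. It was the most uneven of the 149 between pools of a group, with a pooled SD of 0.70 log2. On DR with RU486 it ran from 7.41 to 10.50 with a median of 9.88, against 9.74 to 11.83 with a median of 11.44 on DR without RU486. On AL it stayed between 7.39 and 7.88 with RU486 and between 7.49 and 8.02 without it. The next most uneven, FBtr0072725, had a pooled SD of 0.64 and an average effect of −0.65 ± 0.23 that did not pass (limma adjusted p = 0.149). Averaged over both diets, FBtr0076306 fell by 0.75 ± 0.13 log2 (limma adjusted p = 0.0014) and FBtr0078619 by 0.41 ± 0.10 (limma adjusted p = 0.019). The diets were unlike in both. The difference with minus without RU486 was −1.41 on DR and −0.09 on AL for FBtr0076306, and −1.13 and 0.31 for FBtr0078619.

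The 4 that rose were FBtr0081256, FBtr0087537, FBtr0086176 and FBtr0088164, the last 2 being outside the naming rule and given because the group is small. FBtr0081256 passed with an estimate of 0.49 ± 0.10 log2 (limma adjusted p = 0.00934), which is not a measured size because of its AL values. It had 9.19 to 10.13 log2 on DR with RU486, against 8.78 to 9.70 on DR without RU486, groups that overlap, and 7.28 to 7.93 on AL with RU486, against 7.17 to 7.53 on AL without RU486. On AL it was above background on 5 of 6 arrays with RU486 and on 0 of 6 without it, so its diet difference without RU486 is given as at least 3.32-fold. FBtr0087537 rose by 0.47 ± 0.10 (limma adjusted p = 0.00983), with 10.67 ± 0.34 log2 on DR with RU486 and 10.35 ± 0.24 on DR without it, and 9.20 ± 0.29 on AL with RU486 and 8.58 ± 0.17 on AL without it (SD, n = 6). FBtr0086176 rose by 0.35 ± 0.09 and FBtr0088164 by 0.29 ± 0.08 (limma adjusted p = 0.0244 and 0.0394). The call of FBtr0088164 was lost in 15 of the 24 cases with a single array left out, with adjusted p up to 0.0713. None of the 4 belongs to the third set.

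The RU486 effect on each diet shares its arrays with the rule and is described only. On DR the median difference of the 149, with minus without RU486, was −0.32 log2, against 0.00 over all transcripts, and 138 were below 0. On AL it was −0.04, against 0.00, and 94 were below 0. Of the 149, 113 were above background on all 12 AL arrays. In the others a fall on AL may not show in full, so the effects on the diets are not weighed against each other. All 6 DR arrays with RU486 were below all 6 without it for 18 of the 149 (12.1%), where 2.49% of all transcripts show this, and above them for 0, where 2.77% do. On AL the counts were 3 below and 2 above, where 0.769% and 0.619% of all do. Among the 23 that fell in the average test, the DR difference ran from −1.82 to −0.36 and the AL difference from −1.13 to 0.31, with medians of −1.13 and −0.09. The same limit holds for those of the 23 that were near background on AL.

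The 149 varied between pools of a group more than most transcripts. Their pooled within-group SD had a median of 0.26 log2, against 0.14 over all transcripts. Deviations from group means, which the choice by group medians leaves largely free, also ran together. The median correlation between pairs was 0.21 over the 24 arrays, against 0.02 for all pairs on the array, and 0.20 without the 2 arrays that stand apart. All pairs on the array take in transcripts under background and are not matched to the 149 for level or spread. Pairs also share arrays, so these correlations are descriptions. Among them, 14 pairs covering 27 transcripts have consecutive transcript numbers, with a median correlation of 0.91. One such pair is FBtr0078596 and FBtr0078597, at 0.979. Whether such pairs share a gene or probe sequence is not stated in the files and was not tested, so the 149 may not be separate responses.

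Grouped by how they deviated from pool to pool (average linkage, correlation 0.5), the 149 fell into 15 sets, of which 5 held 10 or more, 114 transcripts in all. The sets were formed after the values were seen and carry no test. The first set, of 36, the fourth, of 18, and the fifth, of 12, followed the arrays that stand apart. The first was 0.59 log2 below its group mean on AL with RU486 pool 1 and the fifth 0.61 above it, and the fourth was 0.67 below on DR with RU486 pool 3. Without these arrays no more than 10, 7 and 5 of their transcripts stayed together. Of the second set 29 of 29 stayed together, and of the third set 14 of 19.

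The second set, of 29 transcripts, held 7 of the 10 that reached 3 log2 in both comparisons, FBtr0085029, FBtr0077058 and FBtr0077061 among them. Its mean level was uneven on DR without RU486, at 10.71, 10.94, 10.01, 10.43, 11.06 and 9.82 log2 in pools 1 to 6. Pool 6 was the lowest of the 6 for 21 of the 29 and pool 3 for the other 8, and pool 5 was the highest for 19 and pool 2 for 10. On DR with RU486 the pool means were 9.52, 10.02, 9.72, 10.25, 10.16 and 10.27, with pool 1 the lowest for 22. On AL they stayed between 7.60 and 7.86 with RU486 and between 7.62 and 7.98 without it, so that every DR pool of the set was above every AL pool. Here 2 of 29 fell in the average RU486 test, or 10 with DR without RU486 pool 6 left out, and the median effect was −0.25 log2, or −0.32 without that pool.

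The third set, of 19 transcripts, was uneven on DR with RU486 above all. Its pool means there were 8.85, 9.71, 9.77, 8.32, 10.10 and 10.19 log2 in pools 1 to 6, against 10.60, 11.08, 10.66, 10.80, 11.06 and 10.87 on DR without RU486. On AL they lay between 7.77 and 8.03 with RU486 and between 7.87 and 8.28 without it. Pools 1 and 4 of DR with RU486 were thus nearest to the AL pools, and pools 5 and 6 farthest. In pool 4, 6 of the 19 lay within the range of AL with RU486 or below it and 15 were above background. In pool 1, 2 lay in that range, and in the other 4 pools 0 did. Even in pool 6, the highest of the 6, 11 of the 19 were below every pool of DR without RU486, and in pools 1 and 4 19 of 19 were. Arrays of both groups took part in the choice of the transcripts and in forming the set. The shares over all transcripts were not counted, so these counts of single pools only describe the set.

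Over all transcripts, pools 1 and 4 had SDs of deviations of 0.159 log2 each, the highest after the 2 arrays that stand apart. Pools 2, 5 and 6 had 0.119 to 0.133 and pool 3 had 0.228. The labels give no slide, vial or batch for a pool, and what sets pools 1 and 4 apart was not tested. Of the 19 transcripts, 15 fell in the average RU486 test, which is 15 of the 23 falls among the 149, with a median effect of −0.75 log2. The number was 14 without DR with RU486 pool 4 and 10 without pool 1. It was 9 without any of AL with RU486 pool 5, AL without RU486 pool 3 or DR without RU486 pool 2, and the highest was 18, without DR with RU486 pool 6. The median diet difference of the third set was 1.597 log2 with RU486 and 2.73 without it, a median share of 0.602. By group medians the share ran from 0.54 to 1.07. The highest was that of FBtr0087912, whose difference of means was smaller with RU486 than without it.

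**Figure D4:**
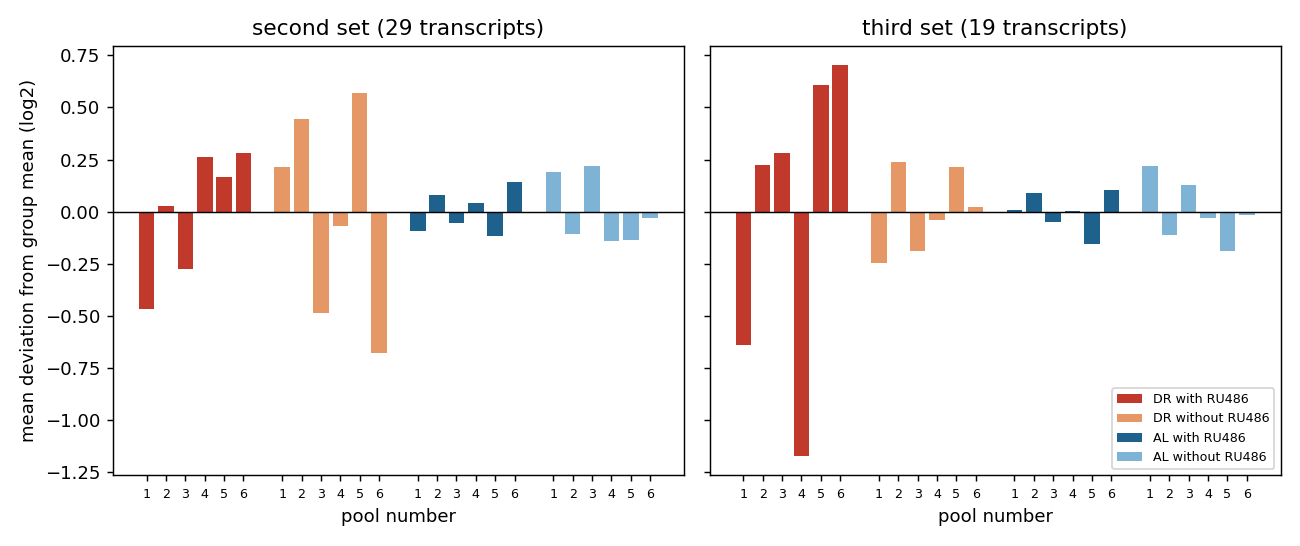
Mean deviation from the group mean (y axis, log2) of the 29 transcripts of the second set and the 19 of the third set in each pool (x axis, pool number within each group, coloured by group). The second set is lowest in pools 3 and 6 of DR without RU486, and the third is lowest in pools 1 and 4 of DR with RU486, at −0.64 and −1.17.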

How the data were processed

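The authors deposited log2 values, 1 for each probe, of the brightness of Cy3-labelled, amplified cDNA on 24 NimbleGen arrays of 1 colour. The log2 base is taken from the range of 6.09 to 16.51, and limma is named, without a version, per the submitters' processing notes. The background correction, the normalization and the array design's build are not given in the sources used here, and the number of arrays limits the precision. The values were used as given. Of 137090 probes, 4091 random probes set the background, the 95th percentile of 511 consecutive sets of 8. The other 132999 were averaged by the first 11 characters of the identifier into 16637 transcripts. A RefSeq gene table (Release 6 plus ISO1 MT) gave 1 symbol for 16 transcripts and several for 28. One mean per group was fitted over all 24 arrays with limma 3.58.1 (lmFit, eBayes) in R 4.3.3, adjusted by the Benjamini-Hochberg method at 0.05. Differences of means with their SEs come from this fit. Where a transcript was above background on no array of AL, its fold is taken against the higher of the background and its own value on each array. It is a lower bound where all DR arrays of the comparison were above background. In a simulation of the average RU486 effect over 16637 transcripts, 94 of 100 shifts by 0.5 log2 were recovered, and 100 of 100 by 1 log2, with 8 false calls. It used independent noise with 1 spread for all groups and shifted transcripts picked from all. The 149 had a median SD of 0.26 log2, against 0.14 over all transcripts, and unequal group spreads. The simulation therefore does not give the recovery among the 149.

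The members, the gene lists, the naming rule and the tests were chosen with earlier results of these data known. The naming rule takes all members with a symbol, of which there were 0, and by identifier the 2 highest and 2 lowest by smaller diet difference, by average RU486 effect and by share of the difference, the 2 with the largest pooled SD, and the 2 transcripts just below the threshold. The alternatives changed the probe summary, the scaling, the group value, the threshold, the array weights, the moderation, the background filter, the block and the arrays included. The grouping into sets, and its alternatives, were added after the data were seen. Python 3.11.15, scipy 1.17.1 and matplotlib 3.10.9 were used.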

Additional observations from a re-analysis of the deposited data

Results flagged for a closer look

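Of 64 groups of 6 values examined, those of the 13 restriction-raised transcripts in the naming rule and of the means of all 149 and of the second set and the third set, 5 had 1 pool far from the others, by the gap to the nearest pool as a part of the group's range. Chance gives about 1 such group in 20. FBtr0085029 was at 9.13 log2 on AL with RU486 pool 6, with the nearest pool at 8.18. FBtr0081256 was at 7.28 on AL with RU486 pool 1, with the nearest at 7.75, and FBtr0087537 was at 8.61 on the same array, with the nearest at 9.21. FBtr0078597 was at 9.74 on DR without RU486 pool 5, with the nearest at 11.19. FBtr0076854 was at 9.87 on DR with RU486 pool 3, with the nearest at 10.86. The last array, and AL with RU486 pool 1, stood apart over all transcripts too.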

How the results depend on the processing

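The number of restriction-raised transcripts depends on the threshold and the scaling. It was 482 at a threshold of 1 log2 and 50 at 1.6, 92 after centring on array medians, all of them among the 149, and 228, with all 149 among them, after subtracting each array's median of the random probes. The other 5 alternatives gave counts within 1.5 times, but the transcripts changed. With group means 117 of the 149 remained, with quantile normalization 106 and with medians over probes 129. Without the 2 arrays that stand apart 141 remained, and with the background filter 144. Leaving out 1 array gave 141 to 179, with at least 133 of the 149 among them. Of the 149, 27 passed the average RU486 test, where 2.73% of all transcripts did. With array weights 43 passed (39 lower, 4 higher), where 7.42% of all did. With 1 array left out 17 to 34 passed, the lowest without AL without RU486 pool 3, and 1.83% to 5.08% of all did. The calls thus also moved over the whole array. Pool numbers were not used to pair the arrays in the main fit. The correlation of same-numbered pools was above 0.1 in 6 of 36 pairs. Between DR with RU486 and AL with RU486 it was above 0.1 in 4 of 6, with a median of 0.125, against −0.02 for other numbers. Whether these arrays are paired is not settled by this. With the replicate block 20 of the 149 passed, where 2.02% of all transcripts did. Of the named transcripts, no average RU486 effect changed sign with 1 of 24 arrays left out or under the 9 other alternatives. Among those that had passed, FBtr0078597 lost its call in 17 fits with 1 array left out and with the replicate block (adjusted p = 0.0584). FBtr0088164 lost it in 15 such fits, with the replicate block (0.0502), with medians over probes (0.0643) and with the random-probe median subtracted (0.0563).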

Other observations

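Transcripts outside the 149 that deviated from pool to pool like the second set or the third set were counted, a step chosen after the data were seen. At a correlation of at least 0.8 with the mean deviation of the second set there were 42 of 16488, and all 42 were higher on DR in both comparisons, where 35.9% of the 16488 are, with median differences of 0.82 log2 with RU486 and 1.09 without it. With the third set there were 18, of which 17 were higher on DR in both comparisons, with medians of 0.71 and 1.58 log2. The average RU486 test in limma was passed by 1 of the 42 and 14 of the 18, where 2.59% of the 16488 pass. The shares of the 16488 are not matched for level or spread. Whether the 42 and the 18 share genes or probe sequence with the 149 was not tested, so they may not be separate responses.

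The number that ends a probe's identifier, whose meaning is not stated in the sources used here, had a median of 692 for the last probe of the 149 transcripts and of 1024 for that of all transcripts. If it is a position, the probes of the 149 cover shorter stretches. Ordered by this number, the first probe of the 149 had median diet differences of 1.38 log2 with RU486 and 1.62 without it, and the eighth had 1.55 and 1.92.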
